A study of Arabidopsis thaliana with 6 samples.

Results

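The 7 loci described here lie on chromosome 4 of Arabidopsis thaliana and form a pair of runs of neighbouring genes with less RNA in the gemin2 mutant than in wild type (WT). They were chosen by their log2 fold changes of gemin2 over WT in these same libraries, out of 33602 loci in the gene table, so their own values are given as a description with no test. The first run holds 3 loci, AT4G13495 with the microRNA genes MIR850A and MIR863A. The second holds 4, UNE15, HTA4, AT4G13572 and AT4G13575. WT plants of the Col ecotype and gemin2 mutants of the gemin2-1 allele, as the authors' tables name it, gave 3 RNA-seq libraries each. Whole plants were taken at 9 days of age after growth at 22 °C in unbroken light, with no other treatment, and whether each library came from separate plants is not stated. GEMIN2 is a protein of the SMN complex, which assembles the small nuclear ribonucleoproteins of the spliceosome, and the comparison between genotypes asks which transcripts differ when it is mutated.

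Plant microRNAs are cut from hairpin precursors by the nuclease DCL1 with its partners HYL1 and SERRATE (SE), and guide AGO1 to transcripts with near-complete complementarity. Histone H2A is a core protein of the nucleosome, and its family includes replacement variants such as H2A.Z. Late embryogenesis abundant (LEA) proteins accumulate in drying seeds and under water or cold stress.

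The libraries held between 14049163 and 17217408 gene reads, and the 7 loci together took 2992, 3973 and 3073 reads of the WT libraries, and 1220, 1609 and 1495 of the mutant ones, each time in the order A, B, C. GEMIN2 itself (AT1G54380) was lower in all 3 mutant libraries, at 71, 77 and 74 reads against 239, 262 and 221. Reads of rRNA loci made up 0.230% to 0.461% in WT and 0.551% to 0.787% in gemin2, and with rRNA and organelle loci left out every one of the 7 log2 fold changes was still below -1. All libraries are of whole plants, so fewer cells that express a gene and less of its RNA per cell cannot be told apart.

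The mature microRNAs of the first run are shown because they are the products that its hairpins are known for. They are written 5′ to 3′ with the seed, bases 2 to 8, in capitals, as read from the TAIR10.1 genome at the RefSeq annotation. The letters come from chr4:7845756-7845777, chr4:7846644-7846664 and chr4:7846835-7846855, all on the plus strand.
miR850: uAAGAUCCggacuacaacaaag
miR863-5p: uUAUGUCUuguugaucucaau
miR863-3p: uUGAGAGCaacaagacauaau
The 3 seeds differ from each other. The libraries were made from polyadenylated RNA, so the reads at MIR850A and MIR863A are those of longer transcripts and not of these 21- and 22-base RNAs.

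Upstream sequence is shown for AT4G13495 and AT4G13575, 1 locus of each run, because these 2 loci are alike from before their starts into the transcript. Each line gives 200 bases, from 260 to 61 bases before the deposited start on the gene's own strand, read from chr4:7842707-7842906 (plus) and chr4:7893766-7893965 (minus) of TAIR10.1. Capitals mark runs of 12 or more identical bases shared in the same order.
AT4G13495: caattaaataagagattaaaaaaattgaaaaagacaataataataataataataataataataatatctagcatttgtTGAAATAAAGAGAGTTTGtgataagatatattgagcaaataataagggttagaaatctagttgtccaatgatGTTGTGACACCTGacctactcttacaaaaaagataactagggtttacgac
AT4G13575: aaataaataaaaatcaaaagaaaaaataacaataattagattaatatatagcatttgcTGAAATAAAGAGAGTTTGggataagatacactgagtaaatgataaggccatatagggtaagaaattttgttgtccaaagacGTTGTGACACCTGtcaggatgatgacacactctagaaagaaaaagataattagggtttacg
The windows shared 2 such runs, the longer of 18 bases and both together of 31 bases. RefSeq exons of AT4G13575 extend beyond the deposited model, so its window need not lie before every annotated start.

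The first run spans 3.933 kb, from 7842967 to 7846899 on chromosome 4 (TAIR10), and all 3 of its loci lie on the plus strand. AT4G13495 is annotated as a non-coding RNA with up to 4 exons, and it was the most highly read of the 7. It had 2433, 3202 and 2432 reads in WT against 1055, 1400 and 1291 in gemin2. Its level was 178 ± 10.3 CPM (counts scaled by library size, mean ± SD, n = 3) in WT against 76.4 ± 6.69 CPM in gemin2, a log2 fold change of -1.22 (SE 0.0623). Every gemin2 library lay below every WT library, and the mutant kept 42.9% of the WT mean.

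MIR850A, the precursor gene of miR850, lies wholly within an intron of AT4G13495, with 0 of its 221 bases in an annotated exon of that gene. It had 115, 162 and 129 reads in WT against 56, 47 and 56 in gemin2, with no overlap between the genotypes. Its log2 fold change was -1.46 (SE 0.141), from 8.97 ± 0.804 CPM to 3.27 ± 0.488 CPM. MIR863A, the precursor gene of miR863, overlaps the last exon of AT4G13495 over 178 of its 303 bases and runs 125 bases past that gene's annotated end. The overlapping stretch holds all 21 bases of miR863-5p and 0 of miR863-3p. MIR863A had 177, 237 and 172 reads in WT against 60, 101 and 95 in gemin2, again without overlap. Its log2 fold change was -1.31 (SE 0.132), from 12.9 ± 0.984 CPM to 5.20 ± 1.12 CPM.

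The 3 loci of the first run lie on 1 strand within 1 stretch, and whether the counting gave a read to more than 1 of them is not stated, so they are not separate measurements. Set against their host, MIR850A had 4.73, 5.06 and 5.30 reads per 100 reads of AT4G13495 in WT and 5.31, 3.36 and 4.34 in gemin2. The genotypes overlapped in this ratio. For MIR863A the ratio was 7.27, 7.40 and 7.07 in WT and 5.69, 7.21 and 7.36 in gemin2, which also overlapped. Neither ratio separated the genotypes.

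The second run spans 14.14 kb, from 7879561 to 7893705, and begins 32.66 kb after the end of the first. UNE15 (AT4G13560, minus strand, 7879561 to 7880383) encodes a LEA protein and was the least read of the 7. It had 13, 28 and 21 reads in WT against 3, 2 and 5 in gemin2. The level averaged 1.36 ± 0.395 CPM for WT against 0.206 ± 0.0964 CPM in gemin2, and the log2 fold change of -2.70 carried the widest error of the 7 loci (SE 0.421). RefSeq extends the gene's transcripts beyond the deposited 823-base model, to 4151 bases of annotated exon, and reads of that extension are not in the value given here.

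HTA4 (AT4G13570, plus strand, 7884516 to 7885982) encodes a histone H2A protein. It had 44, 54 and 36 reads in WT against 11, 17 and 13 in gemin2, a log2 fold change of -1.81 (SE 0.236). The level went from 2.96 ± 0.335 to 0.833 ± 0.137 CPM, and the groups did not overlap. HTA4 also contains MIR841A on the opposite strand, with 65 of its 212 bases in an exon of HTA4. As the labels name no step that marks the strand, reads of the 2 genes cannot be told apart there. MIR841A was read too rarely to be tested, at 9, 15 and 6 reads for WT against 3, 4 and 1 for gemin2.

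The splicing table lists the second exon of HTA4 as a skipped exon. It is shown with 10 bases of intron on each side, and the capitals mark the AG and GT that end the flanking introns (exon at chr4:7885064-7885147, plus strand).
HTA4 exon 2: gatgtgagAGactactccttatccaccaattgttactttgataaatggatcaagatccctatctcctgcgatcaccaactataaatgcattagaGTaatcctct
The exon has 84 bases, or 28 codons with 0 bases left over. It had 6, 14 and 11 reads in WT against 0, 2 and 2 in gemin2. Per 100 reads of HTA4 this was 13.6, 25.9 and 30.6 in WT and 0, 11.8 and 15.4 in gemin2. The ranges overlapped, the shares rest on 11 to 54 reads of HTA4 in a library, and a difference in exon use was not tested.

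AT4G13572 (plus strand, 7887440 to 7888638) is annotated as protein-coding with no symbol in the files. It had 95, 114 and 99 reads in WT against 16, 23 and 16 in gemin2. Its level of 6.84 ± 0.217 CPM in WT and 1.12 ± 0.186 CPM in gemin2 gave a log2 fold change of -2.59 (SE 0.176). AT4G13575 (minus strand, 7892320 to 7893705), also protein-coding and without a symbol, had the lowest log2 fold change, though not clearly apart from that of UNE15. It had 115, 176 and 184 reads in WT against 19, 19 and 19 in gemin2. The level averaged 10.6 ± 2.55 CPM for WT against 1.17 ± 0.0690 CPM in gemin2, so that the mutant kept 11.1% of the WT mean (log2 fold change -3.17, SE 0.210). As for UNE15, RefSeq extends AT4G13575 beyond the deposited model, to 3061 bases of annotated exon against 732 counted. For AT4G13572 it annotates 665 exon bases against 555 counted. Reads of the added parts are not in the values of either locus.

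**Figure D1:**
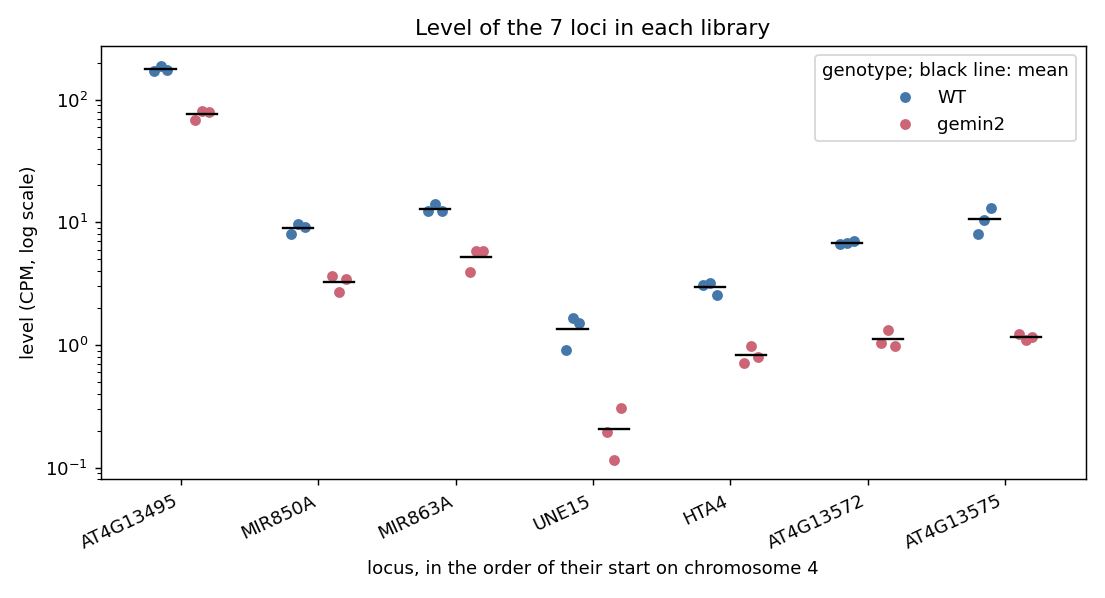
Level of the 7 loci in each library in CPM on a log axis, with WT in blue, gemin2 in red and the mean as a black line. At every locus the 3 gemin2 libraries lie below the 3 WT libraries, from AT4G13495 at 178 against 76.4 CPM to UNE15 at 1.36 against 0.206 CPM.

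In all 7 loci the gemin2 libraries lay below the WT libraries, which is how they came to be chosen. Of the 20762 genes tested in the whole table, 24.7% showed such a separation in this direction, 36.7% passed an adjusted p of 0.05 in either direction, 18.9% were lower at that threshold, and 1.71% had a log2 fold change of -1 or less. Ordered by size, the log2 fold changes ran from AT4G13575 through UNE15, AT4G13572, HTA4, MIR850A and MIR863A to AT4G13495. Only the step from AT4G13572 to HTA4, of 0.78 (SE of the difference 0.295), was larger than 2 SE. The same values chose and ordered the loci, so this is a description and no test of the step. The step from AT4G13575 to UNE15 was 0.47 (SE 0.470) and that from HTA4 to MIR850A 0.35 (SE 0.275). The remaining steps were smaller than their errors, so most places in the order are not settled. The authors' deposited table, which lists 1226 genes, gives log2 fold changes of -3.17 for AT4G13575, -2.59 for AT4G13572 and -1.81 for HTA4. It lists 6 of the 7 loci and leaves out UNE15.

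Per kb of counted length, the order of the levels in WT was AT4G13495 at 171 ± 9.91 CPM per kb, then MIR863A at 42.7 ± 3.25 and MIR850A at 40.6 ± 3.64. Below them came AT4G13575 at 14.4 ± 3.48, AT4G13572 at 12.3 ± 0.392, HTA4 at 3.89 ± 0.441 and UNE15 at 2.25 ± 0.652 CPM per kb. The library ranges of MIR863A and MIR850A overlapped, as did those of AT4G13575 and AT4G13572, and no other neighbours in the order did. In gemin2, AT4G13572 stood above AT4G13575, at 2.02 ± 0.335 against 1.60 ± 0.0943 CPM per kb, with no overlap. The other places in the order were the same.

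Between the 2 runs, and inside the second, lie 10 further loci, of which 7 were read enough to be tested. Of these, 2 were lower at an adjusted p of 0.05 and 0 were higher, where 18.9% and 17.8% of all genes tested were, and none reached a log2 fold change of -1. AT4G13500, the first locus after MIR863A, fell from 64.9 ± 2.27 to 44.6 ± 1.40 CPM (log2 fold change -0.54, SE 0.0522, adjusted p = 1.59e-06 by edgeR's quasi-likelihood test). AT4G13550, the last tested locus before UNE15, fell from 34.3 ± 2.13 to 26.3 ± 1.74 CPM (log2 fold change -0.39, SE 0.0677, adjusted p = 0.000416 by edgeR). Each of these 2 had all gemin2 libraries below all WT libraries, as had 24.7% of all genes tested.

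The ammonium transporter gene AMT1;1 lies in this gap and shares its position with AT4G13505 on the opposite strand, and the 2 had nearly the same counts. AMT1;1 had 896, 958 and 764 reads in WT against 901, 872 and 791 in gemin2, a log2 fold change of -0.14 with an adjusted p of 0.125 (edgeR). AT4G13505 gave -0.15 with an adjusted p of 0.121 (edgeR). Without gemin2 library A, both passed the threshold, at -0.23 each, and the count of called loci among the 10 went from 2 to 5, as MIR841A was then read enough to be tested and passed too. With the column letter as a block, which the libraries' deviations did not bear out as a pairing, both passed as well. SMAP1 (0.13), AT4G13530 (0.09) and AT4G13540 (-0.19, all log2 fold changes) did not pass. The untested loci besides MIR841A were the microRNA genes MIR857A, with 11 reads over the WT libraries and 4 over gemin2, and MIR397B, with 1 and 1.

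The nearest tested genes outside the runs were SDG22 (AT4G13460), which carries the name of a SET domain protein, and AT4G13580. SDG22 had 39.1, 36.4 and 36.8 CPM in WT and 34.5, 38.0 and 36.5 CPM in gemin2, which overlap (log2 fold change -0.04). AT4G13580 fell by 0.30 on the log2 scale (SE 0.0792, adjusted p = 0.00735, edgeR), and this call was lost with DESeq2 (adjusted p = 0.0665). The next gene, AT4G13590, overlaps AT4G13580 in position and was also lower (log2 fold change -0.32, SE 0.0462, adjusted p = 8.82e-05, edgeR). AT4G13600, the tested gene after it, did not pass (log2 fold change 0.65, adjusted p = 0.107, edgeR). The first run's end and AT4G13500 stood at -1.31 and -0.54, and AT4G13575 and AT4G13580 at -3.17 and -0.30.

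**Figure D2:**
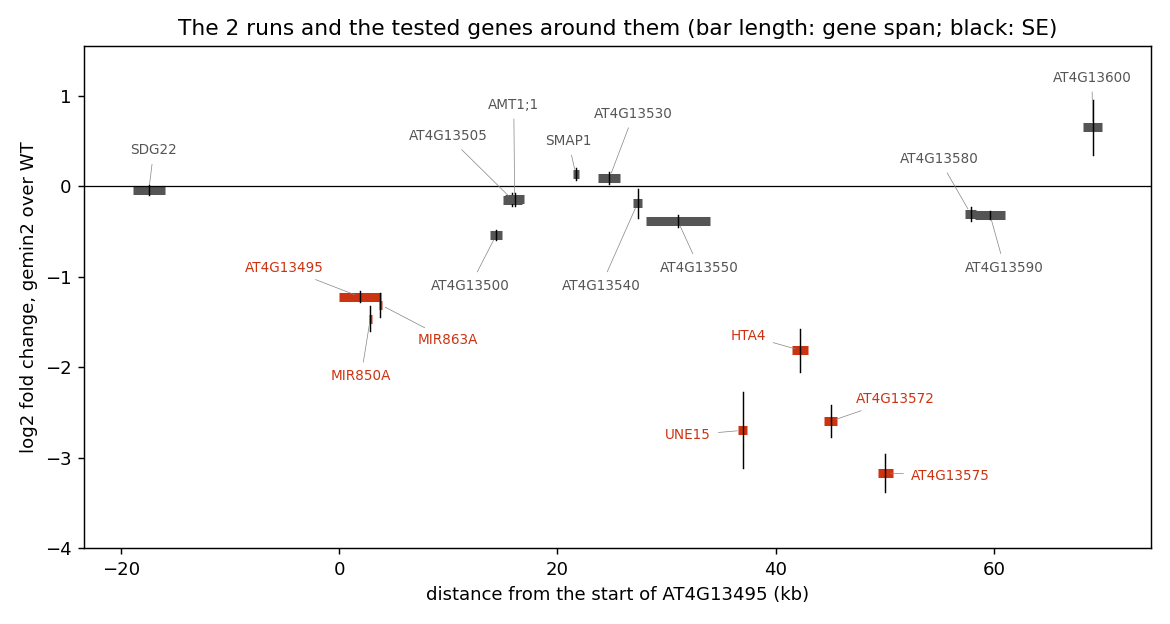
Log2 fold change of gemin2 over WT for the tested genes around the 2 runs, against distance in kb from the start of AT4G13495, with bar length showing the gene's span and black lines the SE. The 7 loci (red) lie between -1.22 and -3.17, and the 7 tested loci between them (grey) from -0.54 to 0.13.

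A wider view was taken over 250 kb on each side, where 95 other genes were tested. Of them, 20 were lower and 15 higher at an adjusted p of 0.05 (edgeR), shares near the 18.9% and 17.8% of all genes tested, and their median log2 fold change was -0.02. A log2 fold change of -1 or less was reached by 3 of the 95 (3.16%), against 1.71% of all genes tested, and 2 reached 1 or more.

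**Figure D3:**
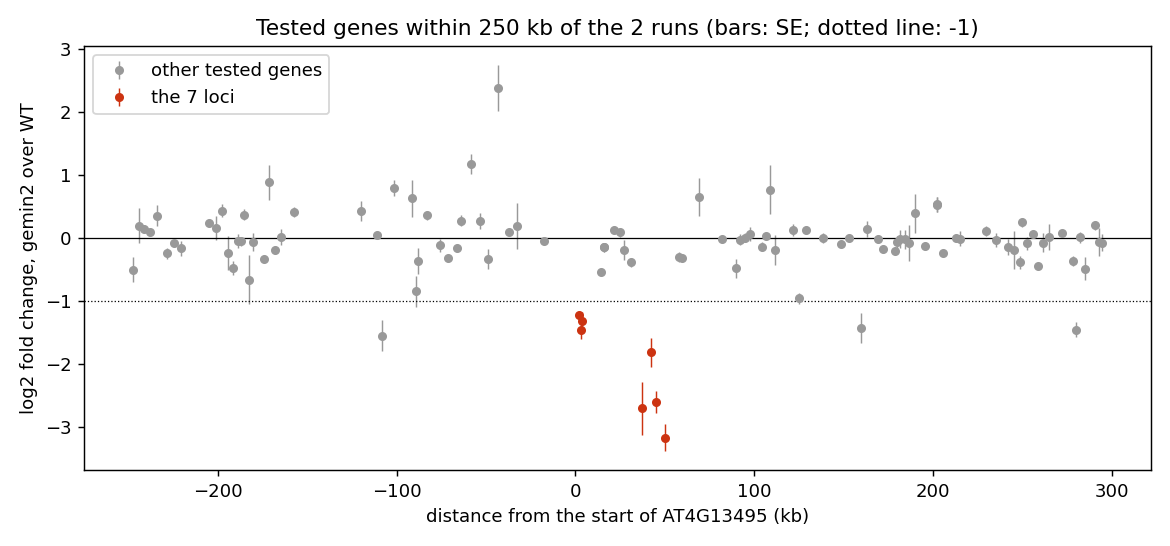
Log2 fold change of gemin2 over WT, with SE, for each tested gene within 250 kb of the runs, against distance in kb from the start of AT4G13495. The 7 loci (red) lie below the dotted line at -1. All other tested genes are grey, with the 7 tested loci between the members among them. Of the 95 on either side, 3 lie below the line.

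Over the whole genome, neighbouring tested genes with a log2 fold change of -1 or less stood alone in 295 cases, in pairs in 23 and in runs of 3 or more in 4. UNE15 to AT4G13575 was the only run of 4, and AT4G13495 with its microRNA genes was 1 of the 3 runs of 3. At a log2 fold change of 1 or more there were 5 runs of 3 or more, of which 2 had 4 genes. Of 20741 windows of 4 neighbouring tested genes, UNE15 to AT4G13575 had the lowest mean log2 fold change, at -2.57. These counts were made with the runs already known, and overlapping loci such as those of the first run count as neighbours.

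The sequences of the runs resemble one another in part, in a search that took each locus with 500 bases upstream of it. AT4G13495 and AT4G13575 aligned in the same transcript sense with 74.7% identity over 699 bases, from position -399 to 253 counted from the start of AT4G13495. A second stretch of the same 2 loci aligned with 72.4% identity over 435 bases. AT4G13572 matched AT4G13495 with 78.2% identity over 523 bases and AT4G13575 with 67.0% over 527 bases, in both cases in the opposite sense. The match to AT4G13495 covered positions -459 to 45 of AT4G13572, so nearly all of it lay before that gene's start. The match to AT4G13575 covered positions -203 to 265 of AT4G13572. HTA4 matched an intronic part of AT4G13495 with 72.5% identity over 207 bases, and UNE15 had 0 matches to any place in the genome at the same settings.

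**Figure D4:**
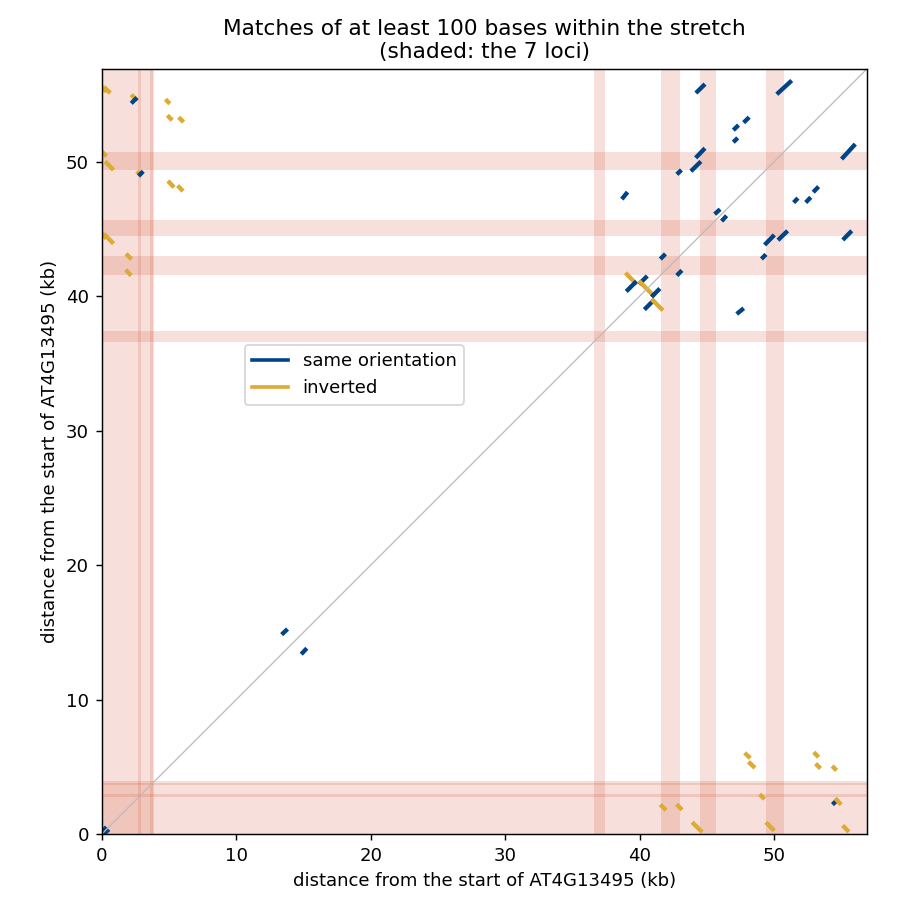
Matches of at least 100 bases of the stretch with itself, each axis giving distance in kb from the start of AT4G13495, with blue for the same orientation, yellow for inverted and shading for the 7 loci. Matches link the first run, and sequence just past its end, with the second run and the bases beyond it.

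Part of the second run has a second copy on the same chromosome. The stretch from 7883417 to 7886336, which contains HTA4, aligned inverted to 2183400 to 2186337 with 93.5% identity over 2947 bases. The next stretch, 7886350 to 7888126, which holds part of AT4G13572, aligned to 2180662 to 2182468 with 88.9% identity over 1851 bases. The copy carries the loci AT4G04408, with 2 reads in WT and 2 in gemin2, and AT4G04409, with 4 and 1. These 2 loci, of 342 and 298 bases, thus had almost no reads in either genotype, but they cover only part of the copy. How reads that map to more than 1 place were counted is not stated. Of the 50-base words in the exons of HTA4, 96.9% occur once in the genome as exact matches. The share was 97.7% for AT4G13572, 94.5% for AT4G13575 and 100% for the other 4 loci. Matches with mismatches were not counted, so these shares do not settle whether a read maps to 1 place.

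Of 10 genes elsewhere that share exon sequence with the 7 loci, 5 were tested. By edgeR's quasi-likelihood test, 0 of the 5 passed an adjusted p of 0.05, where 36.7% of all genes tested did. With so few genes, this count does not set them apart from the rest. Of the 5, 2 had an unadjusted p under 0.05. They were AT5G10320, at a log2 fold change of -0.28, and AT5G35926, at 0.61. The other 3 are H2A genes, HTA8 (0.14), HTA9 (0.00273) and HTA11 (0.00734), which belong to the H2A.Z class.

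The 13 histone H2A genes were all tested. Leaving out HTA4, which was chosen for its value, 4 of the other 12 were lower (33.3%, against 18.9% of all genes tested), 1 was higher and 7 did not pass. Their median log2 fold change was -0.07, against -0.00105 for all genes tested. HTA10 fell from 108 ± 6.91 to 85.4 ± 1.36 CPM (log2 fold change -0.34, SE 0.0516, adjusted p = 0.000119, edgeR). HTA12 fell by 0.39 and HTA13 rose by 0.24 on the log2 scale (adjusted p = 0.00446 and 0.00619, edgeR). Of the lower calls, that of AT1G08880 was lost with DESeq2 (adjusted p = 0.0537) and without gemin2 library B (adjusted p = 0.0519, edgeR). That of HTA7 was lost without gemin2 library A (adjusted p = 0.0703, edgeR). Without HTA4, the family ranged from -0.39 to 0.24. The -1.81 of HTA4 lay outside this range, as a locus chosen for a low value may. HTA4 was also the least read of the 13, with 134 reads over the WT libraries.

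**Figure D5:**
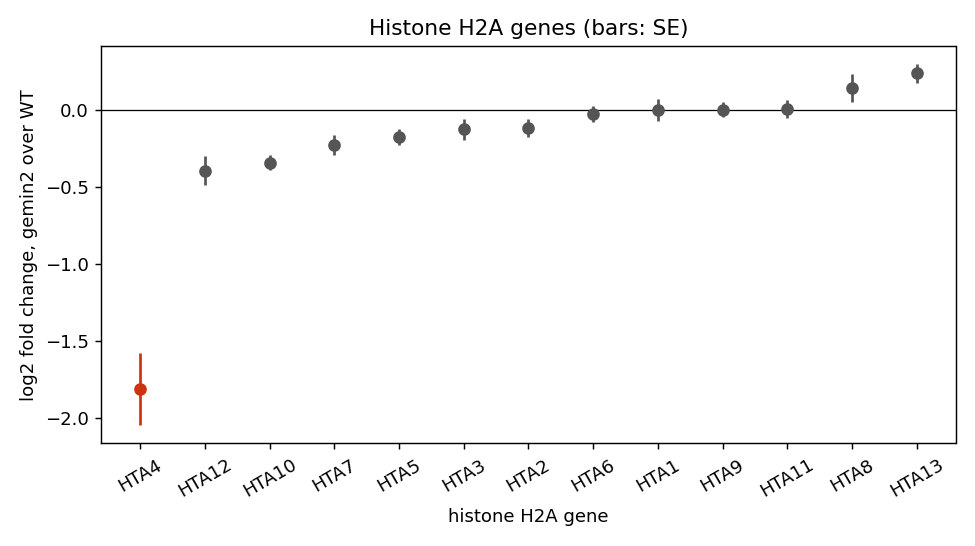
Log2 fold change of gemin2 over WT, with SE, for the 13 histone H2A genes in rising order. HTA4 (red) lies at -1.81 and the other 12 (grey) between -0.39 and 0.24.

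Of 17 LEA genes of group 4, 9 were tested. Leaving out UNE15, which was chosen for its value, 2 of the other 8 were higher (25%, against 17.8% of all genes tested), 0 were lower by edgeR's quasi-likelihood test and 6 did not pass. The cold-induced chloroplast proteins are encoded by COR15 (AT2G42540) and COR15B, and both rose, by 0.99 (SE 0.237, adjusted p = 0.00414) and 0.98 (SE 0.185, adjusted p = 0.000722) by edgeR. DESeq2 did not call COR15 (adjusted p = 0.0641), and gemin2 library C was far above the other 2 at both genes, with 94.7 CPM of COR15 against 47.4 and 39.8. Without that library the log2 fold changes were 0.52 for COR15 and 0.68 for COR15B, and both still passed (adjusted p = 0.00236 and 0.000575, edgeR). AT1G52690, named after its values were seen, had 19, 22 and 76 reads in WT against 25, 24 and 12 in gemin2. Its log2 fold change of -1.07 did not pass (adjusted p = 0.0952, edgeR). The value rested on WT library C, without which it was -0.08, and it passed without WT library A, without WT library B and without the low-count filter (adjusted p = 0.0383, 0.0294 and 0.0334, edgeR).

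Of 13 genes of microRNA processing, 3 rose and 0 fell by edgeR's quasi-likelihood test, so that 23.1% were called, against 36.7% of all genes tested in either direction and 17.8% higher. DCL4, which cuts long double-stranded RNA into small interfering RNAs, rose by 0.40 (SE 0.0738, adjusted p = 0.000606), and HASTY (HST), a nuclear transport receptor, by 0.28 (SE 0.0592, adjusted p = 0.00157). TGH rose by 0.22 (adjusted p = 0.0256), and its call was lost in 5 of the alternative fits. DCL1, with a log2 fold change of 0.09, HYL1, at -0.08, and AGO1, at 0.08, did not pass.

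The transcript of SE is a known target of miR863-3p in Arabidopsis. Its best site, shown as the DNA of the SE strand with mismatches to miR863-3p in capitals, lies at chr2:11576469-11576489 (plus strand), with 19 of 21 bases paired.
SE site: attatgtcttgttCctcCcaa
SE itself had 60.6, 61.5 and 55.4 CPM in WT and 68.1, 62.4 and 64.5 CPM in gemin2, a log2 fold change of 0.13 that did not pass (adjusted p = 0.0738, edgeR). With a mismatch score of at most 4, 4 more transcripts of other genes matched miR863 and none matched miR850. Of these, AT4G28040 and AT1G12310 matched miR863-3p, and ATJ1 (AT1G28210) and IMPA-7 matched miR863-5p. AT4G28040 fell by 0.57 (SE 0.124, adjusted p = 0.00217, edgeR) and ATJ1 rose by 0.45 (SE 0.157, adjusted p = 0.0334, edgeR). The call of ATJ1 was lost with DESeq2 and in 3 fits that left out a library, for example without gemin2 library A (adjusted p = 0.152, edgeR). AT1G12310, at 0.03, did not pass, and IMPA-7 was not tested. The site of AT1G12310, at chr1:4186958-4186978, lies outside the counted span of that gene (4187165 to 4188056). Counting SE, 4 genes with such a site were tested and 2 were called, where 36.7% of all genes tested were. So few genes do not stand apart from that share. Complementarity of this kind is a match of letters, and no small RNA was measured.

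None of the 4 motifs searched near the starts was in all 7 windows. TATAAA, counted on both strands from 250 bases before to 50 bases after the deposited start, was in 2 of the 7 windows and in 48.4% of all 32834. TTGAC, the core of the W-box, was in 3 of 7 against 48.9%. CACGTG and GCCGAC, the G-box and the core of the cold-response element, were in 0 of 7, against 7.2% and 3.5% of all.

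The genes outside the region whose profiles over the 6 libraries were most like the mean of the 7 loci were AT2G29320, AT4G22212, AT1G03940, AT5G35480 and BGLU1. Their distances were between 0.280 and 0.358 log2 units over the 6 libraries, and their log2 fold changes between -1.85 and -2.01. AT4G22212 also lies on chromosome 4, at 11753986 to 11754688, and the other 4 do not.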

How the data were processed

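The deposited values are the authors' unnormalised read counts for genes and splicing bins. The submitters' processing notes name the build TAIR10 with TopHat2 2.0.9, edgeR 3.4.2 and R 3.0.2. No source used here gives the counting tool or its handling of shared reads. The authors' deposited table holds their own log2 fold changes and false discovery rates (adjusted p-values).

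The test of the counts was that of edgeR 4.0.16 under R 4.3.3 (filterByExpr, minimum count 10, TMM, quasi-likelihood F test, two-sided, Benjamini-Hochberg, threshold 0.05) over 20762 genes, after a check on simulated data. The members, the lists and the rule for named genes (all members, the loci between them, the nearest tested gene on each side, the extremes of each list among genes past the threshold and the 5 nearest profiles) were chosen with earlier results of these data known. P-values measure only the spread between these libraries, which may be technical. Replicate pairs differed beyond sampling noise (chi-square over degrees of freedom 2.54 to 4.64). Columns of sample values left out numbered 0.

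Sequences came from RefSeq TAIR10.1 and matches from blastn 2.17.0 (E of 1e-10, at least 100 bases). MicroRNA sites were scored with 1 per mismatch, 0.5 per G:U pair, doubled at bases 2 to 13. The limit was widened from 3 to 4 after the sites had been seen and with SE known as a target. DESeq2 1.42.0 was an alternative.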

Additional observations from a re-analysis of the deposited data

How the results depend on the processing

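The log2 fold changes of the 7 loci stayed below -1 under every alternative run: RLE size factors, no low-count filter, DESeq2, each library left out in turn, rRNA and organelle loci left out, and a block by column letter (the last 2 chosen after seeing the data). With the reads of overlapping loci counted once, which drops MIR850A and MIR863A, so did the other 5. They ranged from -3.32 to -2.99 for AT4G13575, -1.95 to -1.72 for HTA4 and -1.27 to -1.15 for AT4G13495. The count of runs of 3 or more lower genes moved from 4 to 17 at a log2 fold change of -0.58, to 8 among all loci with at least 10 reads and to 33 without the low-count filter, and ranged from 3 to 5 with a library left out. The run that holds AT4G13575 gained MIR841A, to 5 loci, without the filter, without WT library C and without gemin2 library A. Called genes between the runs ranged from 2 to 5 with a library left out. Among single genes, 14 calls were lost and 10 gained over 517 comparisons with an alternative. In 18 of these, in 8 genes, the log2 fold change took the other sign, and 0 of the 18 were of a gene called in either fit. The column letters A, B and C are shared by both genotypes but are tied by no label to the replicate numbers. Libraries with the same letter did not deviate together (correlations across 20762 genes from -0.054 to 8.84e-05). This gave no sign of a pairing by letter, but a correlation over all genes cannot exclude one. The replicate block by letter gave 7512 called genes against 7626, and 4 called loci among those between the runs against 2. Counts under 30 per library, as in UNE15 and exon 2 of HTA4, limit what can be shown there.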
